A study of Mus musculus with 4 samples.

Results

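The guidance genes described here are the semaphorins of classes 3 to 7, the plexins, the slits, the robos, the netrins and the Unc5 receptors of the mouse, chosen by symbol alone from the deposited gene lists. They numbered 47 of 44628 gene identifiers: 20 semaphorins, 9 plexins, 3 slits, 4 robos, 4 netrins, 4 Unc5 genes and 3 antisense RNAs of Plxna4. They were measured in 4 single-nucleus RNA libraries of whole mouse hearts from the BD Rhapsody platform, which barcodes nuclei and RNA molecules and counts the molecules as unique molecular identifiers (UMIs). The cKO group (2 libraries, genotype labelled pkp2 cko, titled PKP2fl/fl MCM cre/+) was compared with the control group (2 libraries, genotype labelled wt, titled MCM cre/+). All mice of both groups received tamoxifen, were labelled 8 weeks of age, and gave hearts 2 weeks after tamoxifen. Each library pooled the hearts of 2 mice, so a library is the replicate and n = 2 per group. The cell type tag reads cardiomyocyte for every sample, although nuclei with cardiomyocyte markers made up 32.5% and 24.9% of cKO and 51.2% and 42.0% of control nuclei.

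Semaphorins are secreted or membrane-bound proteins first known for steering growing axons, and plexins are their receptors. Most class 3 semaphorins reach plexins through neuropilins, while several of the membrane-bound ones bind plexins directly. Slits act through robo receptors, and netrins act through Dcc, neogenin and the Unc5 receptors. In the heart and its vessels these families are known for vessel branching, lymphatic growth, valve and outflow tract formation and nerve ingrowth.

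The libraries held 20992683 and 40536562 UMIs in the cKO group and 13491201 and 35204091 UMIs in the control group, of which 3623 and 6268 cKO nuclei and 2781 and 5979 control nuclei passed the filters. At most 2 barcode labels were shared by any pair of libraries. Pkp2, the targeted gene, had 628 and 594 CPM (UMIs of the gene per 1000000 UMIs of the class and library) in cKO cardiomyocytes, against 559 and 539 CPM in control cardiomyocytes, a log2 fold change of 0.10 (SE 0.14, edgeR adjusted p = 0.830). The sources used here do not say which part of Pkp2 is flanked by loxP sites, so this level says nothing of the deletion, and cKO is used as a label. Esr1, the estrogen receptor gene, part of which is carried by tamoxifen-inducible Cre fusions, had 3661 and 3348 CPM in cKO cardiomyocytes, against 75.3 and 61.5 CPM in control cardiomyocytes. The titles name MCM cre in both groups, but the control genotype label reads wt and control Esr1 was far lower. Whether the controls carry the Cre is thus not clear. A difference in Cre transcript and the loss of Pkp2 cannot be told apart in any comparison below.

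Of the 47 guidance genes, 44 were detected (at least 10 UMIs over the 4 libraries) in at least 1 of 5 cell classes (cardiomyocytes, fibroblasts, blood endothelial nuclei, mural nuclei of the vessel wall and macrophages), and 31 in all 5. Sema4f and the antisense RNAs Plxna4os2 and Plxna4os3 were detected in none. Levels are given as CPM of the UMIs of a class in a library, and each gene is compared only with itself across classes. With lymphatic endothelial nuclei added as a sixth class, each of the 43 detected protein-coding guidance genes was placed in the class of its highest mean CPM. The classes were built from all genes, so these placements are a description and were not tested. Smaller classes, among them lymphocytes and epicardial or mesothelial nuclei, were not ranked. The highest level of a gene therefore means the highest among the ranked classes.

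Lymphatic endothelial nuclei, which line the lymph vessels, held the highest level of 9 guidance genes with at least 10 UMIs there: Sema3a, Sema3d, Sema3f, Sema4d, Sema6a, Sema6b, Plxna4, Ntn1 and Unc5b. A further 6, Sema3e, Sema5b, Ntn3, Robo3, Unc5a and Unc5d, had their highest mean there from 2 to 5 UMIs, too few to place them. For 4 of the 9, Sema3a, Sema3d, Sema3f and Ntn1, every library of that class lay above every library of the class next in order. Sema3a, a repellent ligand of neuropilin and plexin A receptors, had 884 and 1522 CPM in cKO and 246 and 848 CPM in control lymphatic nuclei, where the mean in the next class, blood endothelium, was 25.2 CPM. Ntn1, a secreted netrin, had 953 and 799 CPM in cKO and 464 and 848 CPM in control lymphatic nuclei, against a mean of 93.4 CPM in fibroblasts. Sema3d had 646 and 732 CPM in cKO and 218 and 684 CPM in control lymphatic nuclei, against a mean of 52.4 CPM in fibroblasts. The lowest library in all 3 genes was control 1, which held 22 lymphatic nuclei, against 76 in control 2 and 78 and 134 in the cKO libraries. No group comparison was made in this class.

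Fibroblasts, the cells that make the extracellular matrix, held the highest level of 7 guidance genes: Slit2, Slit3, Sema3c, Sema6c, Plxna3, Robo1 and Unc5c. All but Plxna3 and Robo1 were separated from the class next in order in every library. Slit3, a secreted ligand of robo receptors, had 574 and 857 CPM in cKO and 680.0 and 1132 CPM in control fibroblasts, with a mean of 154 CPM in mural nuclei, the next class. Slit2 had 329 and 344 CPM in cKO and 238 and 306 CPM in control fibroblasts, with a mean of 37.9 CPM in macrophages. Among the ranked classes Slit2 and Slit3 were thus highest in fibroblasts, whereas their receptor genes were spread: Robo1 was highest in fibroblasts and Robo2 and Robo4 in blood endothelium. In epicardial or mesothelial nuclei, which were not ranked, Slit3 had 1647 CPM in pooled cKO and 886 CPM in pooled control nuclei, from 170 and 49 UMIs.

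Blood endothelial nuclei held the highest level of 7 guidance genes, namely Plxna2, Plxnd1, Robo2, Robo4, Sema3g, Sema4c and Sema7a. Plxnd1, the endothelial receptor known for restraining vessel branching, had 214 and 213 CPM in cKO and 263 and 215 CPM in control endothelial nuclei, with a mean of 98.5 CPM in lymphatic endothelium. Robo4, a robo receptor known from blood vessels, had 185 and 126 CPM in cKO and 164 and 133 CPM in control endothelial nuclei. Its libraries overlapped with those of lymphatic endothelium, as did those of Sema4c, and the other 5 were separated from the next class.

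Mural nuclei, pericytes and smooth muscle, held the highest level of 5 guidance genes with at least 10 UMIs there: Ntn4, Sema5a, Sema6d, Plxna1 and Plxnb1, and of Sema4g from 6 UMIs. Of these Sema5a, Sema6d and Plxnb1 were separated from the next class. Macrophages held the highest level of 5: Sema4a, Plxnb2, Plxnb3, Plxnc1 and Slit1. Of these Sema4a, Plxnc1 and Slit1 were separated. Sema4a, a membrane semaphorin of immune cells, had 56.9 and 99.2 CPM in cKO and 181 and 158 CPM in control macrophages, with a mean of 18.2 CPM in mural nuclei. Cardiomyocytes held the highest level of 3, Sema3b, Sema4b and Ntn5, of which Ntn5 was near the detection limit and overlapped with the next class. With the 10 UMIs required in the class itself, 36 genes were placed. In all, 22 of the 43 genes were separated from the class next in order in every library.

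**Figure D1:**
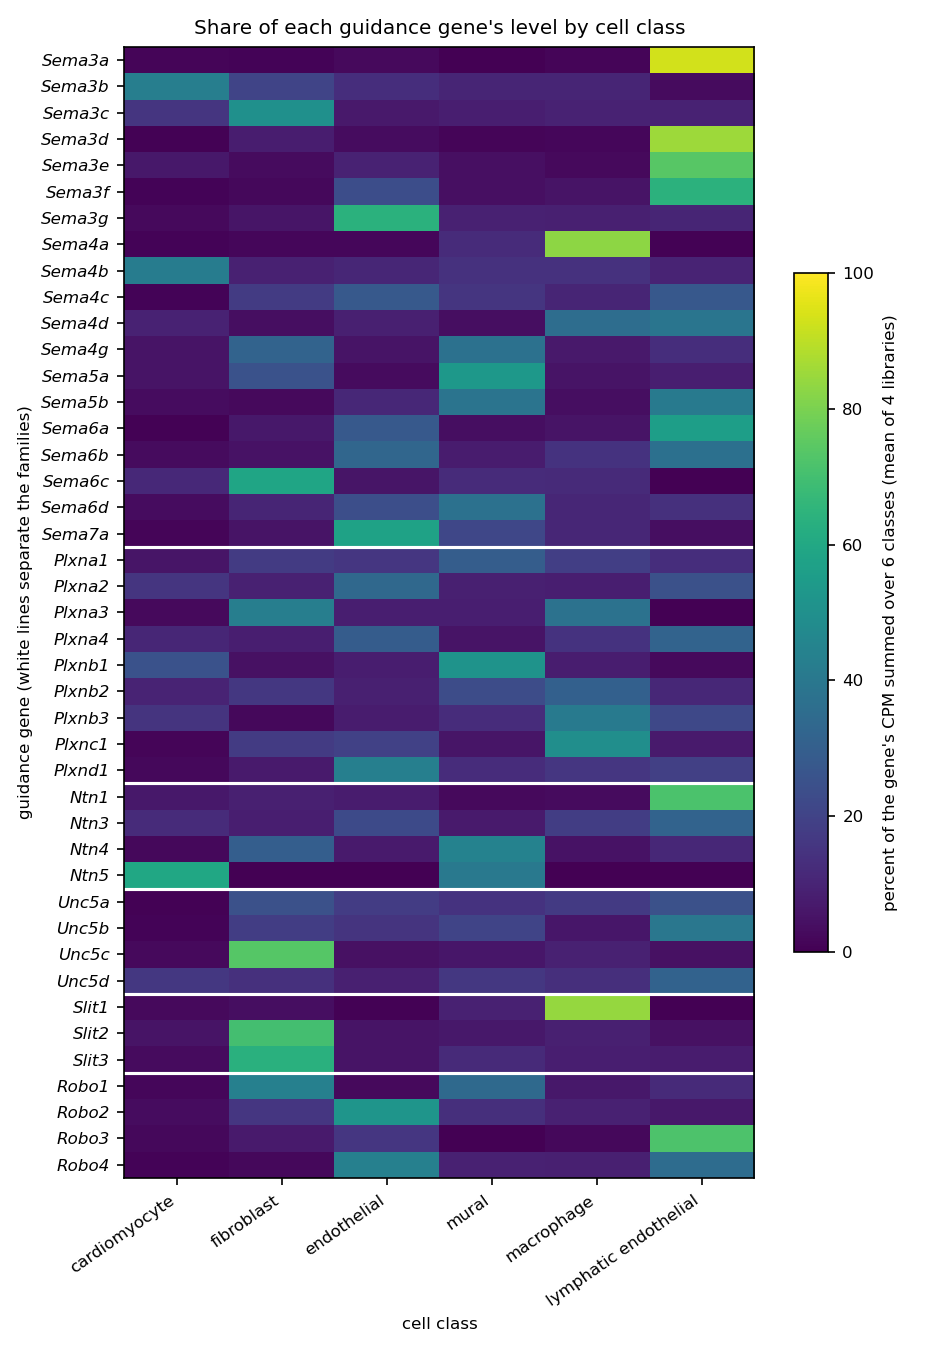
Share of the level of each of the 43 detected protein-coding guidance genes by cell class: rows are genes grouped by family, columns are cell classes, and color is the percent of the gene's CPM summed over 6 classes, from means of 4 libraries. The slits other than Slit1 are bright in fibroblasts, Sema4a and Slit1 in macrophages, and Sema3a, Sema3d and Ntn1 in lymphatic endothelium; the shares of Sema3e, Sema5b, Ntn3, Robo3, Unc5a and Unc5d there rest on 2 to 5 UMIs.

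The comparison of cKO with control hearts was made in each of the 5 classes on counts summed per library, by edgeR's quasi-likelihood test with Benjamini-Hochberg adjustment across the genes tested there, threshold 0.05. Of the 47 guidance genes 37 passed the filter on low counts in at least 1 class and 20 in all 5, which gave 147 pairs of gene and class. Of these pairs 8 passed the threshold, from 7 genes. In all 8 both cKO libraries lay on the same side of both control libraries. Selection by p-value favours such separation, so it adds no support. Of all genes tested, 34% (mural nuclei) to 46.1% (endothelial nuclei) were separated in this way.

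Fibroblasts had the most such genes. In cKO fibroblasts the netrin receptor gene Unc5b, the secreted semaphorin Sema3d and the plexin Plxna4 rose and the membrane semaphorin Sema6a fell. That is 4 of 32 tested guidance genes (12.5%), against 3.89% of all genes tested in fibroblasts. The 3 that rose compare with 2.33% of all genes that rose, and the 1 that fell with 1.56%. The median log2 fold change was 0.27 over the guidance genes tested and 0.01 over all genes tested. DESeq2 also called 4 of the guidance genes.

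Unc5b (ENSMUSG00000020099, GRCm38 chromosome 10, 60762593 to 60831581, minus strand) encodes a transmembrane receptor of netrins. It had 127 and 87.9 CPM in cKO fibroblasts, against 27.9 and 25.2 CPM in control fibroblasts, from 471 UMIs. Both cKO libraries were high, with no overlap. This was a log2 fold change of 1.97 (SE 0.27, edgeR adjusted p = 0.000646), or 3.91-fold.

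Sema3d (ENSMUSG00000040254, GRCm38 chromosome 5, 12383385 to 12588948, plus strand) encodes a secreted semaphorin known from the guidance of endothelial cells in the developing heart. It had 77.2 and 92.8 CPM in cKO fibroblasts, against 16.8 and 22.6 CPM in control fibroblasts, from 421 UMIs. The groups did not overlap. The change was 1.99 on the log2 scale (SE 0.28, edgeR adjusted p = 0.000757), or 3.97-fold. Among lymphatic markers, whose class holds the highest Sema3d level, all 8 were found in fibroblasts, and their summed level there was 180.0 and 107 CPM in cKO and 151 and 93.6 CPM in control libraries, which overlap.

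Because Unc5b and Sema3d rose together, their promoters are shown, with that of Sema3g, the guidance gene that rose in endothelium with Unc5b. Each is 300 bases from RefSeq (GRCm38.p6), from 250 bases before the annotated start to 50 after it, on the gene's own strand, with matches to 4 motifs in capitals. The motifs, searched on both strands, were TGANTCA (AP-1), GGAATG (TEAD), TGGGAA (RBPJ) and GGGCGG (GC box); the TEAD and RBPJ letters can share bases. Coordinates are chr10:60831532-60831831 (minus strand) for Unc5b, chr5:12382916-12383215 (plus strand) for Sema3d and chr14:31217623-31217922 (plus strand) for Sema3g.
Unc5b: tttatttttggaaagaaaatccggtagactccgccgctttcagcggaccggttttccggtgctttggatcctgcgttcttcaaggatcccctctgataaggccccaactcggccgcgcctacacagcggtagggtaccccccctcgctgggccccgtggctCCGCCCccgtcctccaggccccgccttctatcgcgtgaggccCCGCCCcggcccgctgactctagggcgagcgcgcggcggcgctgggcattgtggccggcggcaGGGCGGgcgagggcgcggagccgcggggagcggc
Sema3d: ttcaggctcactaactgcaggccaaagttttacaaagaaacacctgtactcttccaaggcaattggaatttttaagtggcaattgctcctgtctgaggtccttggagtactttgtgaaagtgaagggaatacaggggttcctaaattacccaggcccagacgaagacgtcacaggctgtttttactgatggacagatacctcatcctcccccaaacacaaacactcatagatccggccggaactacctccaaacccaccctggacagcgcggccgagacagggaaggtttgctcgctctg
Sema3g: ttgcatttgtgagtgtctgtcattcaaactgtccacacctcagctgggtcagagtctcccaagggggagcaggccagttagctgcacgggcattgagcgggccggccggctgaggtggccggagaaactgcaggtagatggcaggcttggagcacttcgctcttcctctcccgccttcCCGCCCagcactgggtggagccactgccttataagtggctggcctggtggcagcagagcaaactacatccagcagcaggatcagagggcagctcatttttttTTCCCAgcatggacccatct
The Unc5b promoter held 3 GC boxes and the Sema3d promoter no match. The Sema3g promoter held 1 GC box and 1 RBPJ match. Guanine and cytosine made up 69.7%, 49.7% and 58.7% of the bases of Unc5b, Sema3d and Sema3g, with a median of 52.7% over all promoters of the table. Of 32851 promoters in the table, 7.81% held the AP-1 letters, 14.7% the TEAD, 25.6% the RBPJ and 35.7% the GC box letters. Of 49 promoters of the 36 guidance genes found there, 6.12%, 10.2%, 22.4% and 65.3% held them in the same order. Plxna4 is not in the table.

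Plxna4 (ENSMUSG00000029765, GRCm38 chromosome 6, 32144268 to 32588192, minus strand) encodes a receptor of class 3 and class 6 semaphorins. It had 134 and 156 CPM in cKO fibroblasts, against 54.0 and 47.3 CPM in control fibroblasts, from 746 UMIs. The cKO libraries were both high, with a log2 fold change of 1.51 (SE 0.24, edgeR adjusted p = 0.00147), or 2.86-fold. The 3 antisense RNAs of Plxna4 overlap it on the opposite strand, and the sources used here do not give the handling of strand, so reads of either cannot be told apart.

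Sema6a (ENSMUSG00000019647, GRCm38 chromosome 18, 47235598 to 47368870) encodes a membrane semaphorin that binds plexins A2 and A4. It had 107 and 149 CPM in cKO fibroblasts, against 219.85 and 268 CPM in control fibroblasts, from 1219 UMIs. The groups did not overlap, and the log2 fold change was -0.96 (SE 0.24, edgeR adjusted p = 0.0347). This call was lost without control 2 (log2 fold change -0.76, edgeR adjusted p = 0.263), without cKO 1 (-0.73, adjusted p = 0.432) and without cKO 2 (-1.28, adjusted p = 0.0641). The calls on Unc5b, Sema3d and Plxna4 were kept without each of the 4 libraries.

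**Figure D2:**
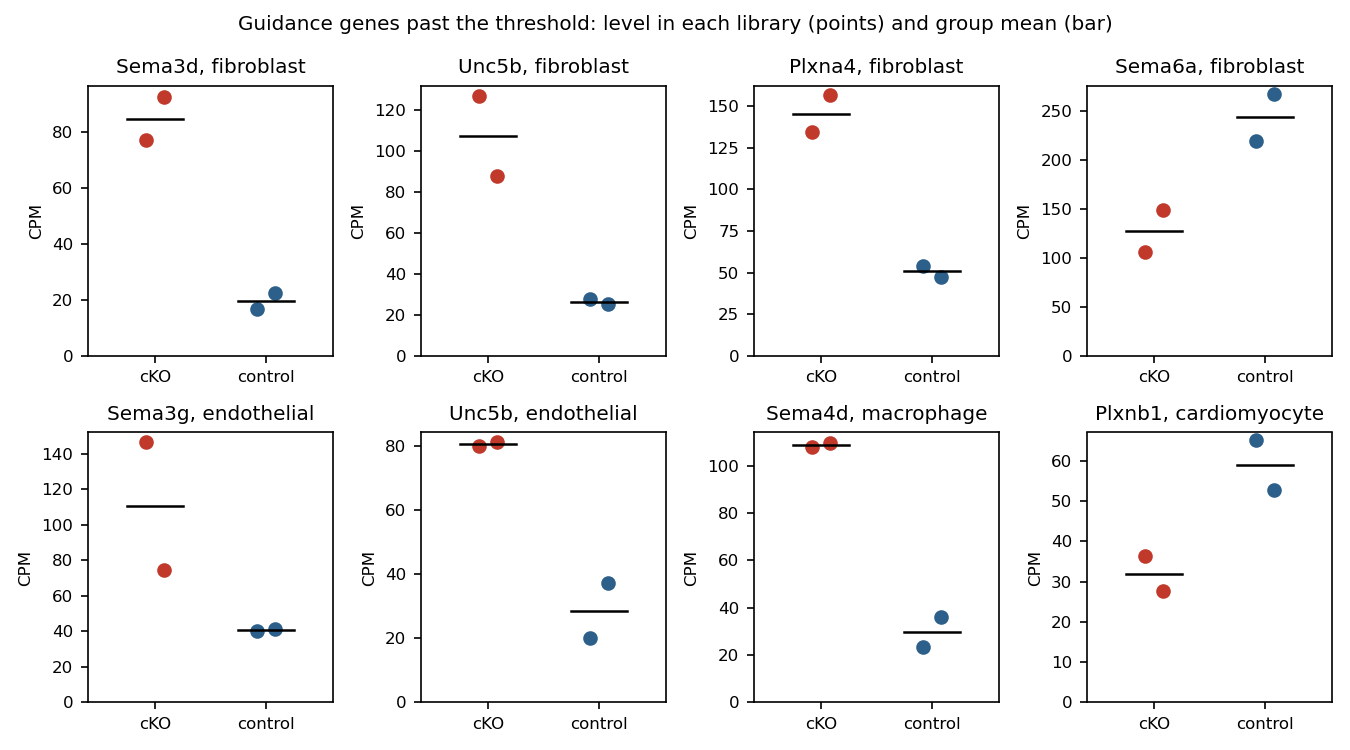
Level (CPM, linear axis from 0) of the 8 pairs of gene and class past the threshold, with 1 point per library, cKO left and control right, and a bar at the group mean. No pair overlaps between groups; Sema3g has the widest spread within cKO, at 147 and 74.7 CPM.

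The nuclei called fibroblasts lay in different clusters in the 2 groups. A cluster led by Cilp, Nox4 and Pamr1 held 93.5% and 87.3% of cKO fibroblasts and 16.2% and 9.29% of control fibroblasts, and a cluster led by Scara5, Col6a6 and Lvrn held the rest. The 4 genes were therefore also read within each cluster, as a description. Unc5b was higher in cKO libraries in both clusters, with 131 and 90.5 CPM in cKO and 53.2 and 32.3 CPM in control nuclei of the Cilp cluster, and with 37.8 and 64.7 CPM in cKO and 21.2 and 24.3 CPM in control nuclei of the Scara5 cluster. Plxna4 was likewise higher in both, with 138 and 162 CPM in cKO and 97.4 and 87.6 CPM in control nuclei of the Cilp cluster, and with 56.8 and 104 CPM in cKO and 42.5 and 42.4 CPM in control nuclei of the Scara5 cluster. For both genes the gap between the groups within a cluster was smaller than in fibroblasts as a whole. Some of these levels rest on few molecules. The control levels in the Cilp cluster come from 13 UMIs of Unc5b and 30 of Plxna4. The Scara5 cluster held 40 nuclei of cKO 1, and its cKO levels come from 22 UMIs of Unc5b and 35 of Plxna4.

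Sema3d differed between the groups in the Cilp cluster, with 81.1 and 101 CPM in cKO and 44.3 and 55.3 CPM in control nuclei. In the Scara5 cluster its libraries overlapped, at 0 and 16.2 CPM in cKO and 9.44 and 18.6 CPM in control nuclei. The Sema3d levels come from 17 control UMIs in the Cilp cluster and from 5 cKO UMIs in the Scara5 cluster. Sema6a overlapped between the groups in the Cilp cluster, with 99.4 and 141 CPM in cKO and 106 and 194 CPM in control nuclei, while in the Scara5 cluster the cKO libraries, at 246 and 214 CPM, lay just below the control libraries, at 250.1 and 277 CPM. The summed level of 13 fibroblast markers was 20511 and 17536 CPM in cKO and 12058 and 10365 CPM in control fibroblasts, and its part in these results was not tested.

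**Figure D3:**
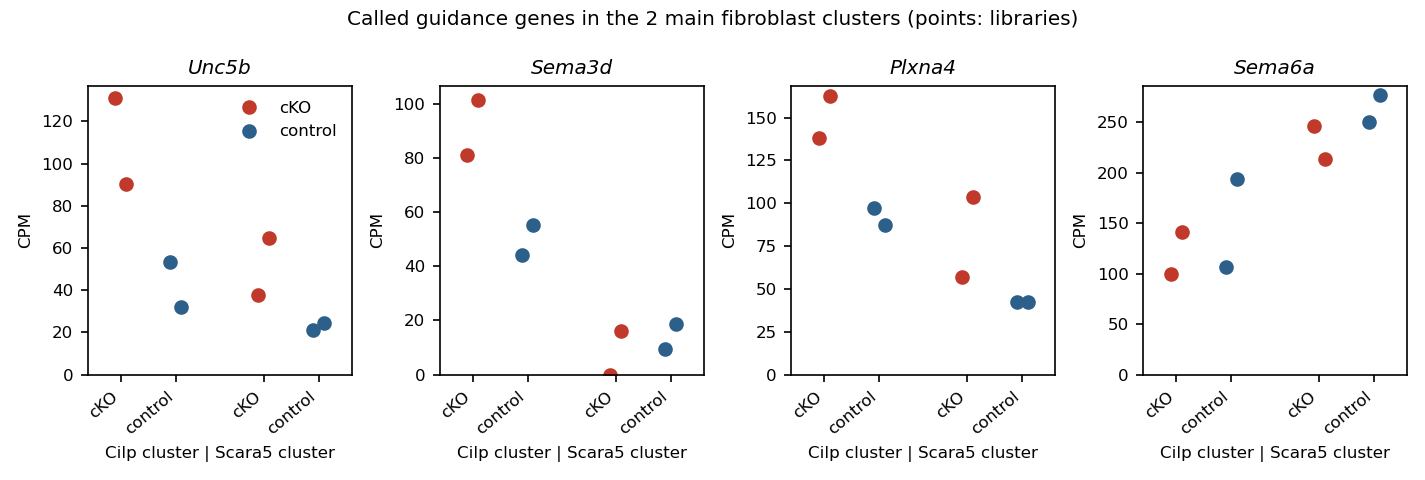
Level (CPM, linear axis from 0) of the 4 fibroblast genes past the threshold in the Cilp cluster (left pair) and the Scara5 cluster (right pair), with 1 point per library and cKO left of control. Unc5b and Plxna4 lie higher in cKO in both clusters, Sema3d in the Cilp cluster with overlap in the other, and Sema6a overlaps in the Cilp cluster.

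In endothelial nuclei Unc5b and the secreted semaphorin Sema3g rose in cKO hearts and none of the guidance genes fell. These were 2 of 29 tested (6.9%), against 3.53% of all genes tested in the class, with 0.719% that rose and 2.81% that fell. The median log2 fold change of the guidance genes was -0.03, and of all genes 0.01. DESeq2 called 2 guidance genes as well.

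Endothelial Unc5b, known from the tip cells of growing vessels, had 80.1 and 81.3 CPM in cKO nuclei, against 20.1 and 37.2 CPM in control nuclei, from 492 UMIs. The cKO libraries were close to each other and above both controls. The log2 fold change was 1.30 (SE 0.28, edgeR adjusted p = 0.0182), or 2.46-fold. The call was lost without control 1 (1.05, edgeR adjusted p = 0.0597), cKO 1 (1.35, adjusted p = 0.379) or cKO 2 (1.26, adjusted p = 0.646), and the log2 fold change was 1.96 without control 2. In the cluster led by Gm12002 and Car4, Unc5b had 115 and 127 CPM in cKO and 29.0 and 63.5 CPM in control nuclei. In the cluster led by Kirrel3 and Col13a1 it had 6.82 and 7.70 CPM in cKO and 8.49 and 21.7 CPM in control nuclei. There the cKO libraries were the lower ones, but from only 9 UMIs in cKO and 8 in control nuclei, too few to give a direction.

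Sema3g (ENSMUSG00000021904, GRCm38 chromosome 14, 31217860 to 31230352, plus strand) encodes a secreted semaphorin that binds neuropilin 2 and is known from arteries. It had 147 and 74.7 CPM in cKO endothelial nuclei, against 40.1 and 41.4 CPM in control nuclei, from 579 UMIs. The controls were nearly equal and cKO 1 was the highest. The log2 fold change was 1.32 (SE 0.31, edgeR adjusted p = 0.0275), or 2.50-fold. Without cKO 1 it was 0.84 (edgeR adjusted p = 0.438) and without cKO 2 it was 1.74 (adjusted p = 0.646), so the call rests on both.

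Sema3g is the leading gene of 1 endothelial cluster, which held 8.01% and 5.93% of cKO and 5.49% and 4.62% of control endothelial nuclei. Within it Sema3g had 1447 and 976 CPM in cKO and 441 and 705 CPM in control nuclei, again without overlap. With that cluster left out the log2 fold change was 0.71 (edgeR adjusted p = 0.424). The summed level of 12 cardiomyocyte markers in endothelial nuclei was 11096 and 7649.8 CPM in cKO, against 22996 and 17106 CPM in control libraries, and that of 12 endothelial markers 15044 and 14815 CPM, against 9809 and 10388 CPM. The part of both in the endothelial results was not tested.

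In macrophages 1 of 31 tested guidance genes rose (3.23%), against 1.12% of all genes tested, with 0.684% that rose and 0.435% that fell, and DESeq2 called 1. It was Sema4d (ENSMUSG00000021451, GRCm38 chromosome 13, 51685529 to 51793747, minus strand), a membrane semaphorin of immune cells that binds plexin B1 and Cd72. Sema4d had 108 and 109.6 CPM in cKO macrophages, against 23.4 and 36.0 CPM in control macrophages, from 362 UMIs. The cKO libraries were nearly equal and well above both controls, with a log2 fold change of 1.74 (SE 0.33, edgeR adjusted p = 0.0168), or 3.34-fold, and the call was lost without control 1 (1.53, edgeR adjusted p = 0.0703). The median log2 fold change over the guidance genes was -0.09 and over all genes 0.02.

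Macrophage nuclei, too, lay in clusters of different weight in the 2 groups. A cluster led by Cd163 held 54.1% and 53.9% of cKO and 85.6% and 89.8% of control macrophages, and one led by Cd300lf, Spp1 and Slfn4 held 31.2% and 30.5% of cKO and 1.6% and 0.173% of control macrophages. Within the Cd163 cluster Sema4d had 69.7 and 51.1 CPM in cKO and 17.8 and 36.8 CPM in control nuclei, without overlap. In the Cd300lf cluster it had 208 and 177 CPM in the cKO libraries, and the control libraries, with 4 and 1 nuclei there, gave no usable level. A cluster led by Treml4 and Adgre4 held 2.12% and 4.11% of cKO and 0.4% and 1.21% of control macrophages. Pooled Sema4d levels there were 449 CPM in cKO and 170 CPM in control nuclei, from 36 and 3 UMIs. The summed level of 12 macrophage markers was 7393 and 12334 CPM in cKO and 11829 and 14631 CPM in control macrophages, and that of 13 fibroblast markers 4740.0 and 1710.1 CPM in cKO and 1887 and 1431 CPM in control macrophages. The 12 cardiomyocyte markers summed to 5878 and 5733 CPM in cKO and 10602 and 7198 CPM in control macrophages. The 8 markers of lymphatic endothelium, where Sema4d was highest among the ranked classes, summed to 195 and 180.0 CPM in cKO and 400.2 and 422 CPM in control macrophages. Lymphocytes were not ranked. Their cluster led by Gm2682 had 144 CPM of Sema4d in cKO and 143 CPM in control nuclei, from 12 and 7 UMIs. Their cluster led by Igkc had 117 and 284 CPM, from 5 and 14 UMIs. The 11 lymphocyte markers summed to 657 and 1108 CPM in cKO and 768 and 982 CPM in control macrophages, which overlap. Ptprc is on this list and on the macrophage list, and 3 of the 11 had no UMIs in macrophages. The sum therefore cannot tell how many lymphocyte molecules the macrophage sums hold. The part of these cluster shares and marker levels in the result was not tested.

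In cardiomyocytes 1 of 34 tested guidance genes passed (2.94%), close to the 2.73% of all genes tested, of which 1.18% of genes rose and 1.55% fell. It was Plxnb1 (ENSMUSG00000053646, GRCm38 chromosome 9, 109095389 to 109119917, plus strand), the receptor of Sema4d, and it fell. Plxnb1 had 36.4 and 27.6 CPM in cKO cardiomyocytes, against 65.2 and 52.7 CPM in control cardiomyocytes, from 1327 UMIs. Both cKO libraries were low, and the log2 fold change was -0.94 (SE 0.20, edgeR adjusted p = 0.0441). The call was lost without cKO 2 (-0.75, edgeR adjusted p = 0.112). DESeq2 called Plxnb1 and Slit3. An antisense gene, Gm7628, overlaps Plxnb1. The median log2 fold change was 0.07 over the guidance genes and 0.00 over all genes.

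Cardiomyocyte nuclei also lay in clusters of different weight. One led by Gm56984, Gm41505 and Nppb, with Esr1 among its leading genes, held 62.1% and 67.7% of cKO and 9.13% and 9.55% of control cardiomyocytes, and one led by Cntn5 and unnamed transcripts 3.65% and 5.97% of cKO and 39.5% and 53.7% of control cardiomyocytes. In the Nppb cluster Plxnb1 had 32.3 and 24.96 CPM in cKO and 43.6 and 45.4 CPM in control nuclei. In the cluster led by Gm35992 and Cirbil it had 40.1 and 38.3 CPM in cKO and 59.5 and 52.0 CPM in control nuclei, and in both clusters the groups did not overlap. In the Cntn5 cluster they did, with 78.8 and 35.5 CPM in cKO and 75.2 and 54.0 CPM in control nuclei. The summed level of the 12 cardiomyocyte markers was 63029 and 60012 CPM in cKO and 63727 and 61029 CPM in control cardiomyocytes.

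In mural nuclei 0 of 21 tested guidance genes passed, where 0.119% of all genes tested did (0.0949% higher and 0.0237% lower in cKO). DESeq2 called 0, and 3 had an unadjusted edgeR p under 0.05 (5.14% of all genes tested had one), named here after their values were seen. Unc5b had 141 and 73.3 CPM in cKO, against 51.6 and 33.4 CPM in control mural nuclei (log2 fold change 1.37, edgeR adjusted p = 0.296). Ntn4, a netrin of basement membranes, had 396 and 375 CPM in cKO, against 163 and 226 CPM in control mural nuclei (0.93, edgeR adjusted p = 0.387). Slit2 had 23.5 and 16.3 CPM in cKO, against 27.8 and 44.2 CPM in control mural nuclei (-1.02, edgeR adjusted p = 0.969). For each of the 3 genes the groups did not overlap.

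Unc5b thus passed in fibroblasts and endothelium, and its cKO libraries lay above its control libraries in the other 3 classes too without passing. In macrophages it had 48.4 and 19.6 CPM in cKO, against 5.84 and 16.5 CPM in control nuclei (log2 fold change 1.27, edgeR adjusted p = 0.346). In cardiomyocytes it had 3.77 and 4.05 CPM in cKO, against 2.02 and 3.18 CPM in control nuclei (0.47, edgeR adjusted p = 0.663). The 5 classes come from the same 4 libraries and are not independent.

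Over all tested guidance genes, both cKO libraries lay on the same side of both controls for 18 of 34 in cardiomyocytes (44.1% of all genes tested), 18 of 32 in fibroblasts (43.2%), 15 of 29 in endothelial nuclei (46.1%), 7 of 21 in mural nuclei (34%) and 14 of 31 in macrophages (42.1%). These counts lie near the background. By family, 2 of 14 semaphorins, 1 of 8 plexins, 0 of 5 slit and robo genes and 1 of 5 netrin and Unc5 genes passed in fibroblasts, where 3.89% of all genes did. In endothelial nuclei 1 of 14, 0 of 7, 0 of 5 and 1 of 3 passed, where 3.53% did. No test set the families apart.

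**Figure D4:**
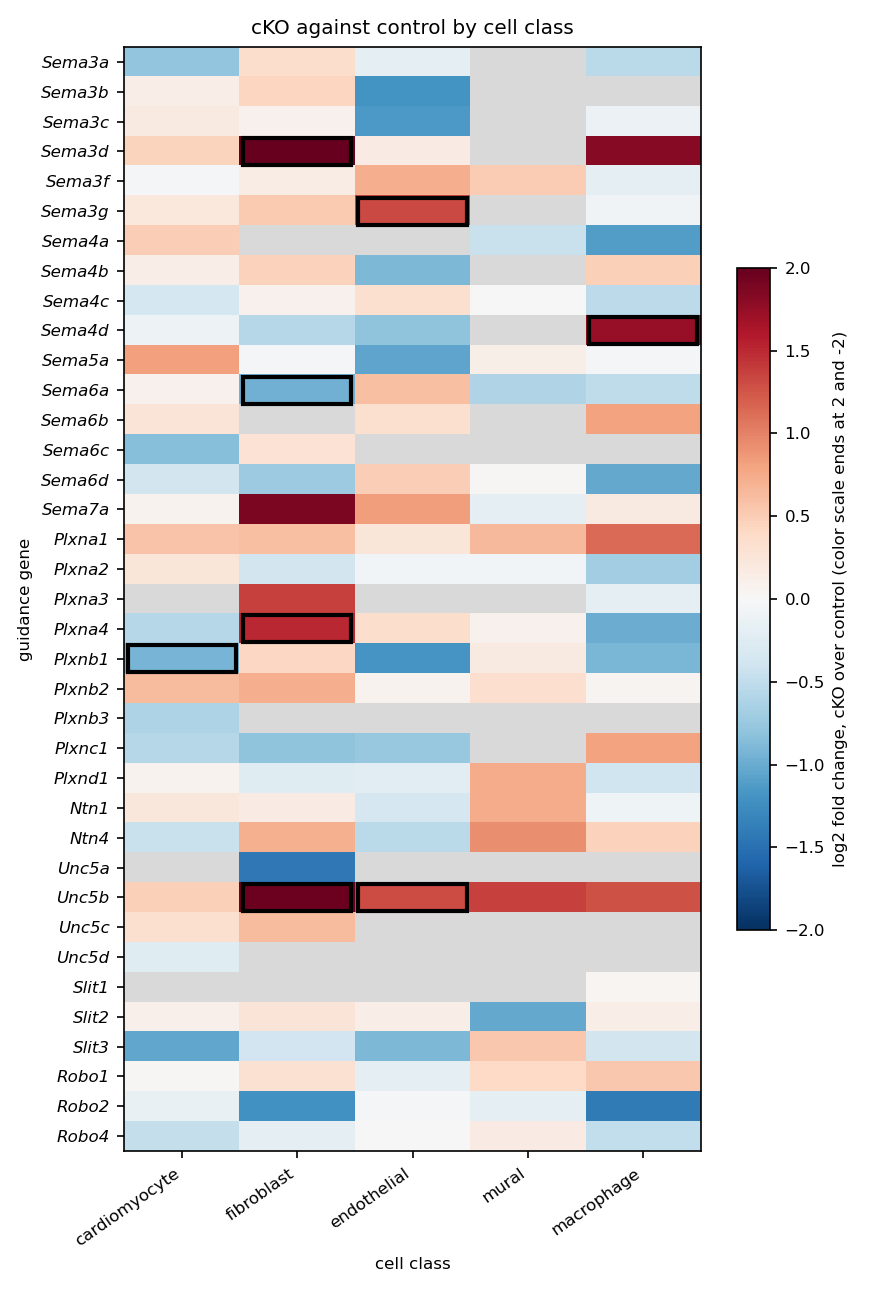
The log2 fold change of cKO over control of the 37 tested guidance genes (rows) in 5 cell classes (columns), red for higher in cKO, blue for lower, grey for not tested, with a black frame around the 8 pairs past the threshold. Unc5b is red in all 5 classes and framed in fibroblasts and endothelium, and fibroblasts have 4 frames.

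Whether the cKO effect differed between classes was tested in 1 model of the 20 sums of 5 classes and 4 libraries, with a term for each library, as the effect in a class minus the mean effect in the other 4. Of 180 contrasts of 36 guidance genes 11 passed, from 8 genes. Over all 14576 genes the share that passed was 2.32% for cardiomyocytes, 2.04% for fibroblasts, 2.58% for endothelial nuclei, 0.467% for mural nuclei and 1.48% for macrophages. Without the library term 0 of the 11 passed (adjusted p from 0.0531 to 0.591), while the differences kept their sign.

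The Plxna4 effect differed between classes, and its estimates had different signs, although the test was of the difference and not of the sign. Each class also enters the contrasts of the others, so the 3 Plxna4 contrasts that passed are not separate results. Its effect in fibroblasts exceeded that in the other classes by 1.86 on the log2 scale (SE 0.27, edgeR adjusted p = 0.000131). In macrophages Plxna4 had 95.1 and 142 CPM in cKO, against 210.3 and 249.8 CPM in control nuclei, and its effect was below that of the other classes by a log2 difference of -1.30 (SE 0.25, edgeR adjusted p = 0.00322). In cardiomyocytes it had 93.5 and 118 CPM in cKO, against 139 and 164 CPM in control nuclei, with a difference of -0.88 (SE 0.22, edgeR adjusted p = 0.0292). In these 3 classes no cKO library overlapped a control library, and within macrophages or cardiomyocytes alone Plxna4 did not pass (edgeR adjusted p = 0.146 in each). In the Cd163 macrophage cluster Plxna4 had 149 and 199 CPM in cKO and 218 and 269 CPM in control nuclei. In the Cd300lf cluster it had 28.9 and 76.5 CPM in the cKO libraries. The part of the cluster shares in the macrophage difference was not tested.

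For Sema6a and Sema6d, both membrane semaphorins of class 6, the cKO effect in endothelium lay above the mean effect in the other classes. Sema6a had 879.8 and 1080.1 CPM in cKO endothelial nuclei, against 549 and 679.7 CPM in control nuclei, and its effect exceeded that in the other classes by 1.16 (log2, SE 0.22, edgeR adjusted p = 0.00234). Sema6d had 277 and 297 CPM in cKO endothelial nuclei, against 206 and 187 CPM in control nuclei, with a difference of 1.07 (SE 0.15, edgeR adjusted p = 4.64e-05). In macrophages Sema6d had 77.3 and 69.2 CPM in cKO, against 143 and 145 CPM in control nuclei, with a difference of -0.89 (SE 0.18, edgeR adjusted p = 0.00561). In each case the groups did not overlap, and within the single class the genes did not pass (edgeR adjusted p = 0.213, 0.294 and 0.105). In the Cd163 macrophage cluster Sema6d had 87.5 and 98.7 CPM in cKO and 149.82 and 149.55 CPM in control nuclei. In the Cd300lf cluster it had 26.1 and 12.8 CPM in the cKO libraries. The 12 endothelial markers summed to 15044 and 14815 CPM in cKO and 9809 and 10388 CPM in control endothelial nuclei. A contrast also counts falls in other classes, such as that of Sema6a in fibroblasts. The part of clusters and markers in these differences was not tested.

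Sema4d in macrophages and Sema3g in endothelium also differed from the other classes, by 1.78 (SE 0.38, edgeR adjusted p = 0.00850) and 1.32 (SE 0.35, edgeR adjusted p = 0.0418). Plxnc1, the plexin that binds Sema7a, had 73.1 and 107 CPM in cKO macrophages, against 38.0 and 58.3 CPM in control macrophages, and its difference was 1.41 (SE 0.31, edgeR adjusted p = 0.00968). In fibroblasts Plxnc1 ran the other way, with 17.5 and 18.4 CPM in cKO and 27.9 and 32.2 CPM in control nuclei. Neither class passed on its own. In the Cd163 macrophage cluster Plxnc1 had 69.7 and 72.5 CPM in cKO and 42.8 and 59.2 CPM in control nuclei. In the Cd300lf cluster it had 84.0 and 144 CPM in the cKO libraries. The part of the cluster shares in the Plxnc1 difference was not tested.

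Sema5a, a membrane semaphorin with thrombospondin repeats, had 34.3 and 42.9 CPM in cKO cardiomyocytes, against 17.6 and 24.0 CPM in control cardiomyocytes, and differed from the other classes by 1.00 (SE 0.25, edgeR adjusted p = 0.0250). Slit3 had 120.3 and 249 CPM in cKO mural nuclei, against 95.3 and 153 CPM in control mural nuclei, which overlap, and differed by 1.23 (SE 0.32, edgeR adjusted p = 0.0368). The main mural cluster, led by Mdga2 and Pde8b, had 83.2 and 109 CPM of Slit3 in cKO and 82.0 and 128 CPM in control nuclei, which overlap. A cluster led by Or51e2 and Myh11 held 9.48% and 11.3% of cKO and 2.86% and 4.45% of control mural nuclei, with 404 and 1124 CPM of Slit3 in cKO and 660.4 CPM in control 2; control 1 had 6 nuclei there, too few for a level. The 9 smooth muscle markers summed to 1567 and 1658 CPM in cKO and 1041 and 1049.6 CPM in control mural nuclei, and their part in the Slit3 difference was not tested. In cardiomyocytes Slit3 had 19.6 and 31.7 CPM in cKO, against 54.5 and 48.6 CPM in control nuclei (log2 fold change -1.04, edgeR adjusted p = 0.0601).

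**Figure D5:**
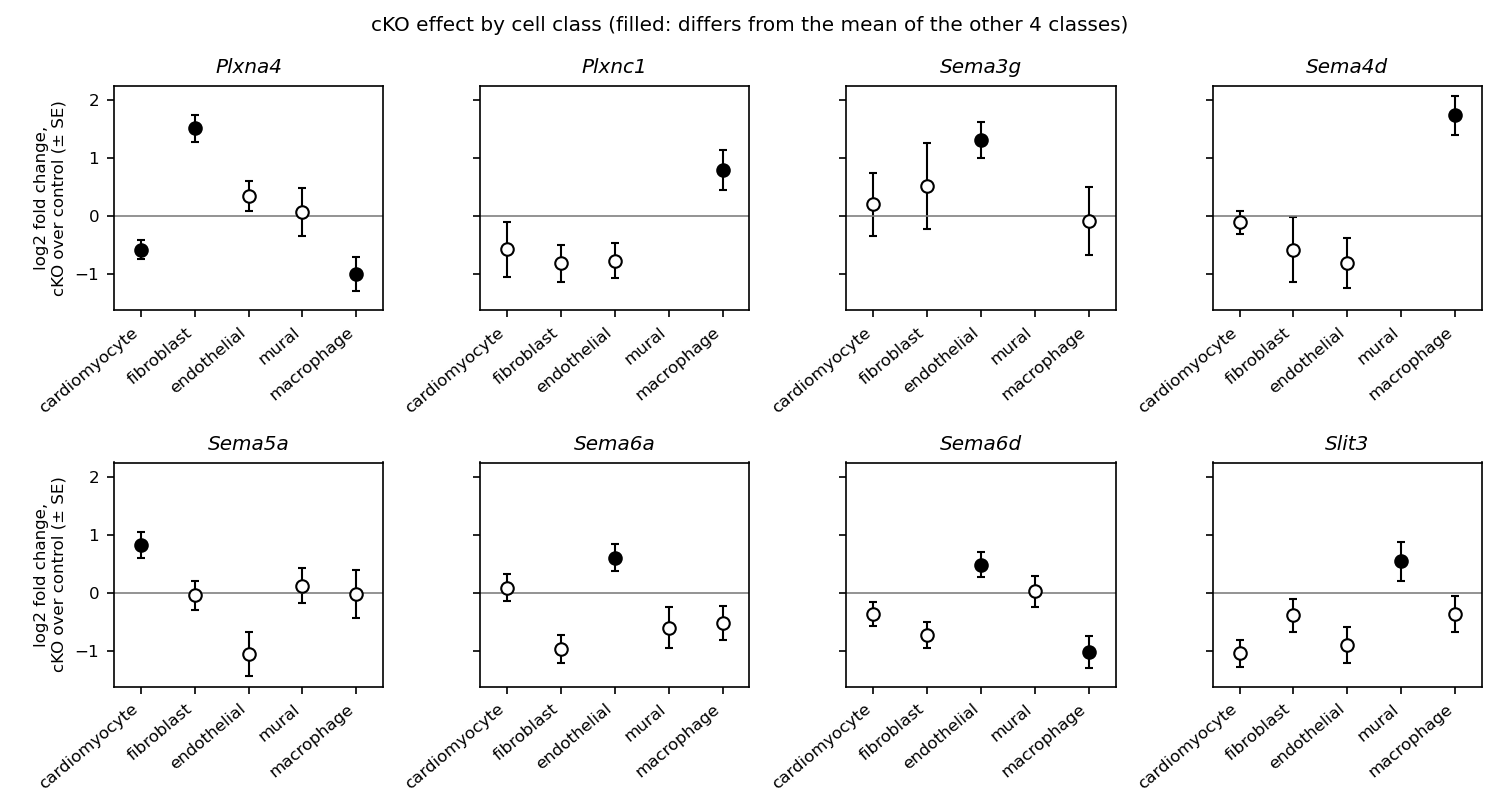
The log2 fold change of cKO over control (± SE) of 8 guidance genes in the cell classes where they were tested, filled where the effect differs from the mean of the other 4 classes. Plxna4 lies above 0 in fibroblasts and below 0 in cardiomyocytes and macrophages, and Sema6d above 0 in endothelium and below 0 in macrophages.

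Partners of these families were read from 3 lists: 19 co-receptors and other receptors, 10 other ligands and 51 intracellular effectors. In fibroblasts 1 of 10 tested co-receptors rose and 1 fell, 5 of 46 effectors rose and 0 fell, and 0 of 6 other ligands passed, where 2.33% of all genes tested rose and 1.56% fell. DESeq2 called 1 of the co-receptors and 3 of the effectors. Neo1, neogenin, a receptor of netrins, had 162 and 144 CPM in cKO, against 68.9 and 59.4 CPM in control fibroblasts (log2 fold change 1.23, edgeR adjusted p = 0.00514). Nrp2, neuropilin 2, a co-receptor of class 3 semaphorins, had 50.5 CPM in both cKO libraries, against 106 and 85.0 CPM in control fibroblasts (-0.92, edgeR adjusted p = 0.0371). Nrp2 was named after its values were seen, and DESeq2 did not call it (adjusted p = 0.142). Both groups were separated for either gene.

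The effectors that rose in fibroblasts were the kinase gene Pak3 (3.33), the gene of the actin-oxidizing enzyme Mical2 (1.22), Tiam1, an activator of Rac (1.37), Dpysl3, of the collapsin response mediator family (0.98), and Srgap3, of the slit-robo GTPase activating family (1.06), all as log2 fold changes. DESeq2 did not call Tiam1 (adjusted p = 0.0681) or Srgap3 (adjusted p = 0.164). In cardiomyocytes 2 of 14 co-receptors rose, the matrix receptor gene Cd44 (1.32) and Met (1.47), a receptor kinase known to associate with plexin B1. Of the effector list 3 of 46 tested genes rose, Pak3 (2.29), Dpysl3 (1.49) and Enah (0.98). Plxdc2 of the same list fell (-0.85), although it encodes a membrane protein and not an intracellular one. Of all genes tested there 1.18% rose and 1.55% fell, and DESeq2 called all 6. Pak3 and Dpysl3 rose in both classes, with 28.8 and 21.8 CPM of Pak3 in cKO and 3.63 and 5.82 CPM in control cardiomyocytes, and 36.7 and 73.2 CPM in cKO and 3.73 and 6.04 CPM in control fibroblasts. In macrophages 1 of 45 effectors passed, Ablim3, an actin-binding gene, which fell with a log2 fold change of -1.33, where 0.435% of all genes tested fell. Ablim3 is also among the leading genes of the endothelial cluster led by Gm12002 and Car4. The 12 endothelial markers summed to 2847 and 1271 CPM in cKO and 2542 and 2296 CPM in control macrophages, which overlap. Their part in the Ablim3 result was not tested. In endothelial and mural nuclei 0 genes of the 3 lists passed edgeR and 0 passed DESeq2. An unadjusted edgeR p under 0.05 was found for 3 of 10 co-receptors, 3 of 6 other ligands and 7 of 45 effectors in endothelial nuclei, where 15.1% of all genes tested had one. In mural nuclei it was found for 1 of 8, 0 of 4 and 2 of 40, where 5.14% of all genes tested had one.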

How the data were processed

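Single-nucleus RNA was measured in 2 cKO and 2 control heart libraries, grouped by title. The authors deposited raw UMI counts of each gene in each nucleus, whole numbers without normalization, per the file headers. Reads were mapped to mm10, per the submitters' processing notes. Aligner, counting program, annotation, strand handling and nucleus calling were not given in the sources used here. Nuclei were sorted by a nuclear pore antibody tag, per the labels' protocols, which also mention a check of a neuronal gate. Which nuclei the sort kept is not stated, and it can set the class shares.

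Nuclei were kept with at least 300 genes, 500 UMIs and at most 5% mitochondrial UMIs, without the top 0.5% by UMIs. Between 48.8% and 53.8% of barcodes exceeded the mitochondrial limit. Scrublet (scanpy 1.11.5, expected share 6%) removed 6.48% and 13.5% of cKO and 6.80% and 6.69% of control nuclei; its own threshold worked in cKO 2 alone, so elsewhere nuclei at or above the score bounding the top 6% were removed, ties included. Nuclei were clustered together (2000 variable genes, 30 components, 15 neighbours, Leiden resolution 1, leidenalg 0.10.2), giving 25 clusters, named from marker lists where at least 3 markers were in 10% of nuclei at over 2 times the mean over clusters. The naming rule was set after the data were seen, and names mean nuclei like those types. Endothelial includes endocardial nuclei. Unnamed clusters held 0.753% to 1.88% of nuclei per library.

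Counts were summed per library and class and tested with edgeR 4.0.16 (R 4.3.3), with TMM normalization (factors 0.964 to 1.05), its expression filter, Benjamini-Hochberg adjustment within each class and a threshold of 0.05; DESeq2 1.42.0 was an alternative. The tests were tried on simulated data. Class sums ranged from 251724 UMIs (mural, control 1) to 10992956 (cardiomyocytes, control 2). SE is the size of the log2 fold change divided by the root of the F statistic. CPM are unscaled by TMM. With 2 libraries per group, p-values measure the spread between pools. All 47 guidance genes matched GENCODE M21 (GRCm38) by identifier, as did 27169 of 44628 identifiers. Reads of overlapping genes may have been counted for either. Each guidance gene past the threshold in a class or in the contrast between classes is given in every library; partners are named by smallest adjusted p, up to 6 per class, and Nrp2 beside them. The guidance genes and lists were chosen with earlier results of these data known.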

Additional observations from a re-analysis of the deposited data

Results flagged for a closer look

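The cKO effect on 8 guidance genes differed between cell classes by a test of the difference itself, an effect in 1 class minus the mean effect in the other 4 (log2 scale). The differences were -0.88 for Plxna4 in cardiomyocytes, 1.86 in fibroblasts (1.855 before rounding) and -1.30 in macrophages. They were 1.41 for Plxnc1 and 1.78 for Sema4d in macrophages, and 1.32 for Sema3g in endothelial nuclei. Sema5a differed by 1.00 in cardiomyocytes, Sema6a by 1.16 in endothelial nuclei, Sema6d by 1.07 in endothelial nuclei and by -0.89 in macrophages, and Slit3 by 1.23 in mural nuclei. The model holds 5 sums from each of 4 libraries, so its spread is that among classes of the same library. Each class enters the contrasts of the others, so several contrasts of the same gene are not separate results. Fibroblasts and cardiomyocytes of the cKO libraries lay mostly in other clusters than those of the control libraries. The Cd163 cluster held 54.1% and 53.9% of cKO and 85.6% and 89.8% of control macrophages. The Cd300lf cluster held 31.2% and 30.5% of cKO and 1.6% and 0.173% of control macrophages. The cluster led by Or51e2 and Myh11 held 9.48% and 11.3% of cKO and 2.86% and 4.45% of control mural nuclei. In the main mural cluster Slit3 overlapped between the groups, at 83.2 and 109 CPM in cKO and 82.0 and 128 CPM in control nuclei. The 12 endothelial markers summed to 15044 and 14815 CPM in cKO and 9809 and 10388 CPM in control endothelial nuclei. The part of these shares and marker levels in the differences was not tested.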

How the results depend on the processing

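All 109 alternative values of single genes kept their direction and 28 lost the call, 11 of them the class differences without the library term, which left 0 of 11. Without replicate 1 or 2 of either group, the number of guidance genes called was 2 to 3 in cardiomyocytes (1 with all libraries), 3 to 7 in fibroblasts (4), 0 to 2 in endothelial nuclei (2), 0 to 1 in mural nuclei (0) and 0 to 5 in macrophages (1); a lone library is then assumed to vary like the other group. With the replicate number as a block the counts were 11, 14, 13, 2 and 6 in the same order. The share of all genes called was counted for the main setting alone. The counts under other settings in this paragraph therefore cannot be set against a background. Same-numbered libraries deviated together (r of 0.506, 0.350, 0.340, 0.188 and 0.271), but the labels give no shared batch and there are 2 pairs, so the numbers were not taken as pairing. DESeq2 gave 2 in cardiomyocytes and no filter on low counts gave 4. At most 1% mitochondrial UMIs gave 1 in fibroblasts (Sema6d), 0 in endothelial nuclei and 0 in macrophages, from as few as 18, 3 and 12 nuclei in control 1. There the log2 fold change of fibroblast Unc5b was 2.33 (edgeR adjusted p = 0.0542), of Plxna4 1.13 (0.288) and of cardiomyocyte Plxnb1 -0.80 (0.113). No doublet removal gave 0 in cardiomyocytes, 1 in endothelial nuclei and 3 in macrophages. Without the cluster led by Sema3g, chosen after seeing the data, endothelial nuclei had 1, Unc5b. The other choices made after seeing the data, mural nuclei without a cluster with endothelial markers and macrophages without dividing nuclei, changed no count. The cause of each change was not tested. Sema3d in fibroblasts kept its call in the 10 alternatives where it was tested. With at most 1% mitochondrial UMIs it did not pass the filter on low counts. Nor did Unc5b and Sema3g in endothelial nuclei or Sema4d in macrophages. These cases are not among the 109 values or the 28 lost calls. Mural sums were the shallowest and limit what was detectable there.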

Other observations

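Nuclei with epicardial or mesothelial markers, the covering layer of the heart, numbered 11 and 28 in the cKO and 3 and 16 in the control libraries, too few for a test. The 3 nuclei of control 1 summed to 5568 UMIs of all genes, so the control 1 values below, given first of the control pairs, are not usable levels. Plxna4 had 1189 and 2468 CPM there in cKO and 898 and 985 CPM in control libraries, from 270 UMIs in all. Slit3 had 1090.1 and 1878 CPM in cKO and 718 and 905 CPM in control libraries, from 219 UMIs. Sema3c, a secreted semaphorin known from the outflow tract, had 396 and 658 CPM in cKO and 359 and 302 CPM in control libraries, from 77 UMIs. Sema3d had 165 and 685 CPM in cKO and 718 and 201 CPM in control libraries, from 69 UMIs, with overlap between the groups. Sema3a, high in lymphatic endothelium, had 3 UMIs in these nuclei. The epicardial or mesothelial nuclei were left out of the class ranking. With control 1 left aside, their lowest Plxna4 library, at 985 CPM, lay above the highest lymphatic endothelial library, at 497 CPM. On the same terms their lowest Sema3c library, at 302 CPM, lay above the highest fibroblast library, at 73.8 CPM. These libraries held 11 to 28 such nuclei. For Slit3 their libraries overlapped with the fibroblast libraries, at 574 to 1132 CPM.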
